A study of Rattus norvegicus with 12 samples.

Results

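The genes described here encode the proteins of the cytosolic ribosome. They were chosen by gene symbol alone: every symbol of the platform annotation with Rpl or Rps followed by a digit, plus Rplp0, Rplp1, Rplp2 and Rpsa, without the Rps6 kinases and without symbols ending in l for like. The rule found 48 of the 14217 genes with a probe set of their own, of which 33 carry a large-subunit and 15 a small-subunit symbol. Of the 48, 43 are called subunit genes here. The other 5 have the symbol of a numbered paralog (Rpl7l1, Rpl26l1 and Rpl39l1) or of a pseudogene (Rpl37-ps2 and Rps4x-ps1). This split rests on the form of the symbol alone, and Rps4y2, a copy of the Rps4 gene, stays among the 43. Whether the 5 encode proteins of the ribosome was not tested. The rule left out 7 kinases and the paralogs Rpl3l and Rps27l.

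RNA was measured in 12 samples of rat esophagus on Affymetrix arrays, in 4 groups of 3. NMBA (N-nitrosomethylbenzylamine), a carcinogen that gives rats squamous tumors of the esophagus, was injected under the skin at 0.3 mg per kg body weight in 0.2 ml, 3 times a week over 5 weeks, and these rats form groups at week 6, week 15 and week 29, labelled as early, middle and late stages of tumor development. The control group received the solvent alone, 1 part of dimethyl sulfoxide to 4 parts of water, and the sources used here do not give its week of sampling or the strain, sex and age of the rats. Rats of every group were kept 3 to a cage. The labels do not state that arrays of a group are separate animals, so the p-values reflect only how much these samples vary, and that variation may be technical. Per the labels, RNA came from epithelium freed of the underlying layers, as bulk tissue and not as sorted cells.

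A ribosome is built from ribosomal RNA and many different proteins. It has a large subunit that joins amino acids and a small subunit that reads the messenger RNA. Cells make the proteins in matched amounts, and growing and dividing cells make more of them. The messenger RNAs of these genes belong to the 5′ TOP class, which start with a cytosine and a run of pyrimidines and whose translation is controlled through mTOR. Squamous epithelium of the esophagus divides in its basal layer, while skeletal muscle, which forms the outer wall of the rat esophagus, makes its own paralog of Rpl3.

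The start regions of 11 members described below are printed so that the letters around the start can be compared. They are those of 13 named members with a promoter in the table, without the dim-signal Rpl39 (a match) and Rpl39l1 (none). A match is CTTTC or CTTTT within 20 bases of the start, which 6 of the 13 hold and 7 do not. They come from RefSeq on GRCr8 and run from 40 bases before to 20 bases after the start of the gene in that table, 5′ to 3′ on the gene's strand. The capitals mark CTTTC or CTTTT within 20 bases of the start on either side, where the window holds it. Other runs of pyrimidines were not searched for, and windows without capitals can hold them. Rpl13a lies at chr1:104748894-104748953 on the minus strand, Rpl18 at chr1:105325230-105325289 on the plus strand and Rpl21 at chr12:13386134-13386193 on the minus strand; these 3 and Rpl3, at chr7:113507971-113508030 on the minus strand, were the members called lower at week 29 than in controls. Rpl34, at chr2:221962264-221962323 on the minus strand, and Rps15, at chr7:10068096-10068155 on the minus strand, had the lowest p-values at week 6. Rps4y2, at chr4:183000873-183000932 on the plus strand, was called lower than control at week 15. Rplp0 lies at chr12:46718371-46718430 on the minus strand, Rps6 at chr5:106420521-106420580 on the minus strand, Rpl14 at chr8:129163580-129163639 on the plus strand and Rps13 at chr1:180009641-180009700 on the minus strand; these are named for their values below.
Rpl13a: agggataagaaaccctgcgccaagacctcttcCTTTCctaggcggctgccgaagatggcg
Rpl18: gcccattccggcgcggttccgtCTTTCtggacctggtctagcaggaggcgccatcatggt
Rpl21: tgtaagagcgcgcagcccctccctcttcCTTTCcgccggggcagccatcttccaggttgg
Rpl34: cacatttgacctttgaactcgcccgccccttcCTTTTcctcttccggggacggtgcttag
Rps15: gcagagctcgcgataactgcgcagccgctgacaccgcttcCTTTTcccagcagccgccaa
Rpl3: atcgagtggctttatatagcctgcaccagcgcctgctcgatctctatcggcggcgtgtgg
Rps4y2: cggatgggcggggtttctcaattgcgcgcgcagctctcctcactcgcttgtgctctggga
Rplp0: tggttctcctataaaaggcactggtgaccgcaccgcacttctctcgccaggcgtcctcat
Rps6: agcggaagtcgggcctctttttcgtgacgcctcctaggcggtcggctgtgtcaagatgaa
Rpl14: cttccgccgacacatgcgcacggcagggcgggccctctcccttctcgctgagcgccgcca
Rps13: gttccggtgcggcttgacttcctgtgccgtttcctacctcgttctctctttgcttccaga

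Of the 48 members, 46 were found in the RefSeq gene table and 39 had a promoter there. CTTTC or CTTTT on the gene's strand, within 20 bases of the start, was in 23 of these 39 (59.0%). The share was 9.27% of all 33469 promoters and 7.96% of the 13193 promoters of genes measured on the array. CGGAAG, the core bound by ETS factors such as GABP, was found on either strand of the 300-base promoter, 250 bases before to 50 after the start, in 19 of 39 members (48.7%), against 16.6% of all promoters and 25.7% of those measured. AAGATGG, part of the YY1 site, was in 8 of 39 (20.5%), against 7.01% and 7.55%. No CTTTC or CTTTT match overlapped a CTTCCG, the reverse complement of CGGAAG. A match is a description of the letters only, and the table's starts may not be the true 5′ ends of the transcripts.

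Signals are on the log2 scale as deposited and ran from 2.49 to 14.71 over all probe sets. The probe sets of 38 members had means of 12.73 or above, called bright here, and those of the other 10 had means of 9.50 or below, called dim. For Rpl28 (5.08), Rpl30 (5.35) and Rps13 (6.71) the dim probe set is the one with a single symbol, and brighter ones carry several symbols and were not named. Rplp1 and Rps18 also have only probe sets with several symbols, and Rplp2 and Rps27a were not analysed here. Levels of different probe sets are not set against each other below.

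The signals of muscle and keratinocyte markers differed between the groups. Most skeletal muscle markers had a mean of 6 or above although the protocol removed the muscle layer: 41 of 42 measured markers did, and none was at 0. Their mean log2 signal was 11.40 to 11.83 in controls, 12.21 to 12.33 at week 6, 9.71 to 11.29 at week 15 and 11.96 to 12.18 at week 29. The mean of 29 squamous and basal keratinocyte markers ran the other way, at 10.49 to 10.82, 9.74 to 10.03, 10.83 to 11.32 and 9.32 to 9.96. The difference between the 3′ and 5′ control probe sets of GAPDH, which is larger in degraded RNA, was 0.22 to 0.53 in controls, 0.07 to 0.15 at week 6, 0.22 to 0.60 at week 15 and 0.13 to 0.21 at week 29. In these bulk samples fewer cells of a type and less RNA per cell cannot be told apart.

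Ribosomal protein messenger RNA was highest at week 15 and lowest at weeks 6 and 29. The mean log2 signal of the 38 bright members was 13.72, 13.46 and 13.58 in the controls, 13.43, 13.33 and 13.40 at week 6, 13.75, 13.71 and 13.83 at week 15, and 13.53, 13.26 and 13.24 at week 29. All week 15 samples lay above all samples of weeks 6 and 29, and the controls lay between, with control 1 inside the week 15 range and control 2 inside that of week 29. Week 15 had the highest mean of the 4 groups in 43 of 48 members, against 40.1% of all genes. Week 15 highest with week 29 lowest was the order in 34 of 48, against 20.6% of all genes. Replicate 3 of week 15, which also had the lowest muscle signal of all samples, was the highest array for 35 of the 48 members. In 3 of the 4 groups the array with the lowest muscle signal had the highest ribosomal protein signal; week 6 was the exception. The array with the highest GAPDH 3′ to 5′ difference had the highest ribosomal protein signal in 1 of the 4.

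**Figure D1:**
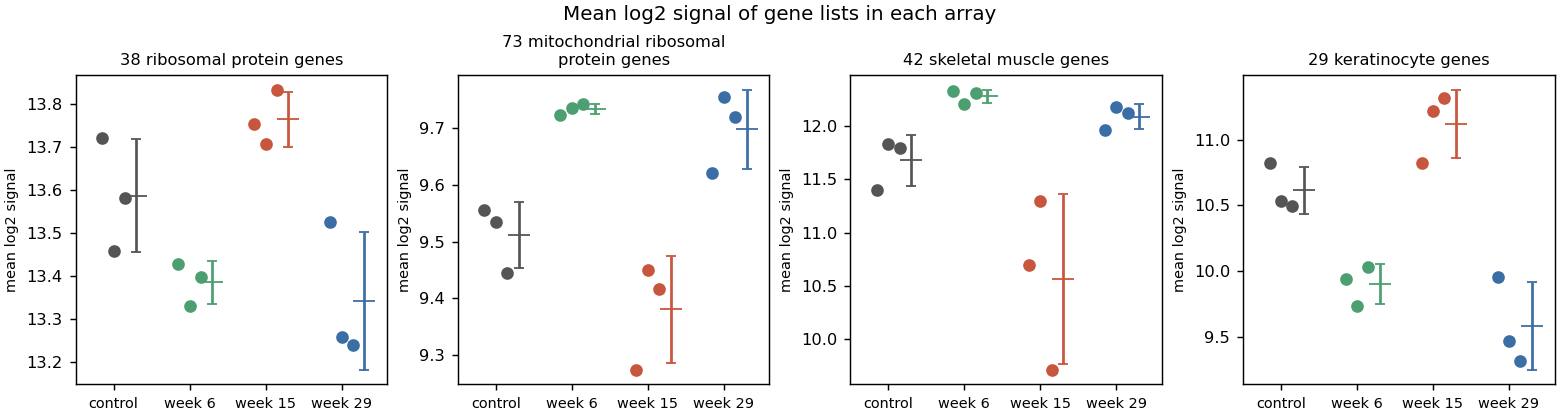
Mean log2 signal per array of the 38 bright ribosomal protein genes, 73 mitochondrial ribosomal protein genes, 42 skeletal muscle markers and 29 keratinocyte markers, by group; dots are arrays and the bar is the mean ± SD of 3. The cytosolic ribosomal protein score at week 15 (13.71 to 13.83) lies above those of weeks 6 and 29, as the keratinocyte score does, while the muscle score is lowest at week 15.

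The first comparison between stages asked how week 15 differed from week 6. Ribosomal protein genes were higher at week 15, by a median of 0.38 on the log2 scale or 1.30-fold, while the median of all genes was 0.07. Of 48 members, 40 rose and 1 fell past an adjusted p of 0.05 in limma, where 22.7% of all genes rose and 21.2% fell. In 42 members all 3 samples of week 15 lay above all 3 of week 6, as in 30.1% of all genes, and in 1 member, Rpl37-ps2, below them, as in 25.6%. The rise held for 29 of 33 large-subunit and 11 of 15 small-subunit symbols, and for 39 of the 43 subunit genes. The 7 members not called were Rpsa, Rps29, Rpl30, Rps4y2, Rpl26l1, Rpl39l1 and Rps4x-ps1. For Rpl30 this is the dim probe set. Brighter ones that list Rpl30 among several symbols rose by 0.35 and 0.52 (limma adjusted p = 0.00678 and 0.00451).

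Rpl3, which lies close to the peptidyl transferase centre of the large subunit, had the largest change among the bright members. Its log2 signal was 13.83, 13.39 and 13.65 in controls, 13.35, 13.11 and 13.27 at week 6, 13.86, 13.78 and 13.95 at week 15, and 13.50, 13.00 and 12.83 at week 29. The 3 week 15 samples lay above every sample of weeks 6 and 29. Between weeks 6 and 15 it rose by 0.62 ± 0.16 (SE, n = 3; limma adjusted p = 0.00986), which is 1.54-fold. Rpl14, a large-subunit protein, rose by 0.52 ± 0.15 (limma adjusted p = 0.0185), from 12.66 to 12.81 at week 6 to 13.15 to 13.41 at week 15. That call was lost without replicate 2 of week 6 or replicate 3 of week 15. Another probe set of Rpl14, with a mean of 5.06, gave 0.15 and was not called (limma adjusted p = 0.486). Rpl39, a small protein of the exit tunnel, rose by 0.53 ± 0.14 (limma adjusted p = 0.00957) on a dim probe set, from 7.11 to 7.38 up to 7.57 to 7.93.

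Rplp0, the base of the stalk that recruits translation factors, had log2 signals of 13.58, 13.45 and 13.68 at week 6 and 13.91, 13.93 and 14.02 at week 15. It rose by 0.38 ± 0.12 (SE; limma adjusted p = 0.0283), a call lost without replicate 1 or 2 of week 6 or replicate 1 or 3 of week 15. Rpl5 and Rpl11, which bind the 5S ribosomal RNA and can also bind Mdm2 and so raise p53, rose by 0.38 ± 0.10 and 0.35 ± 0.10 (limma adjusted p = 0.0128 and 0.0134). Rpl5 was 13.44 to 13.52 at week 6 and 13.79 to 13.94 at week 15, and Rpl11 13.26 to 13.33 and 13.57 to 13.71, with no overlap for either.

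Among small-subunit genes, Rps6 encodes the protein that S6 kinases phosphorylate. Its log2 signal was 14.04, 13.92 and 13.99 at week 6 and 14.35, 14.28 and 14.40 at week 15, with controls at 14.30, 14.06 and 14.22. The rise was 0.36 ± 0.10 (SE; limma adjusted p = 0.0132). Rps28, mutated in some patients with Diamond-Blackfan anemia, rose by 0.49 ± 0.10 (limma adjusted p = 0.002), from 12.86 to 13.03 up to 13.35 to 13.48. Rps29, a zinc-binding protein of the small subunit, ran from 14.07 to 14.12 at week 6 and from 14.24 to 14.25 at week 15, which did not overlap but differed by 0.15 ± 0.08 (limma adjusted p = 0.178). Rpsa, a small-subunit protein also known as the laminin receptor, differed by 0.35 ± 0.15 (limma adjusted p = 0.0875) on its brightest probe set. The mean of its 3 probe sets gave 0.49 (limma adjusted p = 0.0134).

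**Figure D2:**
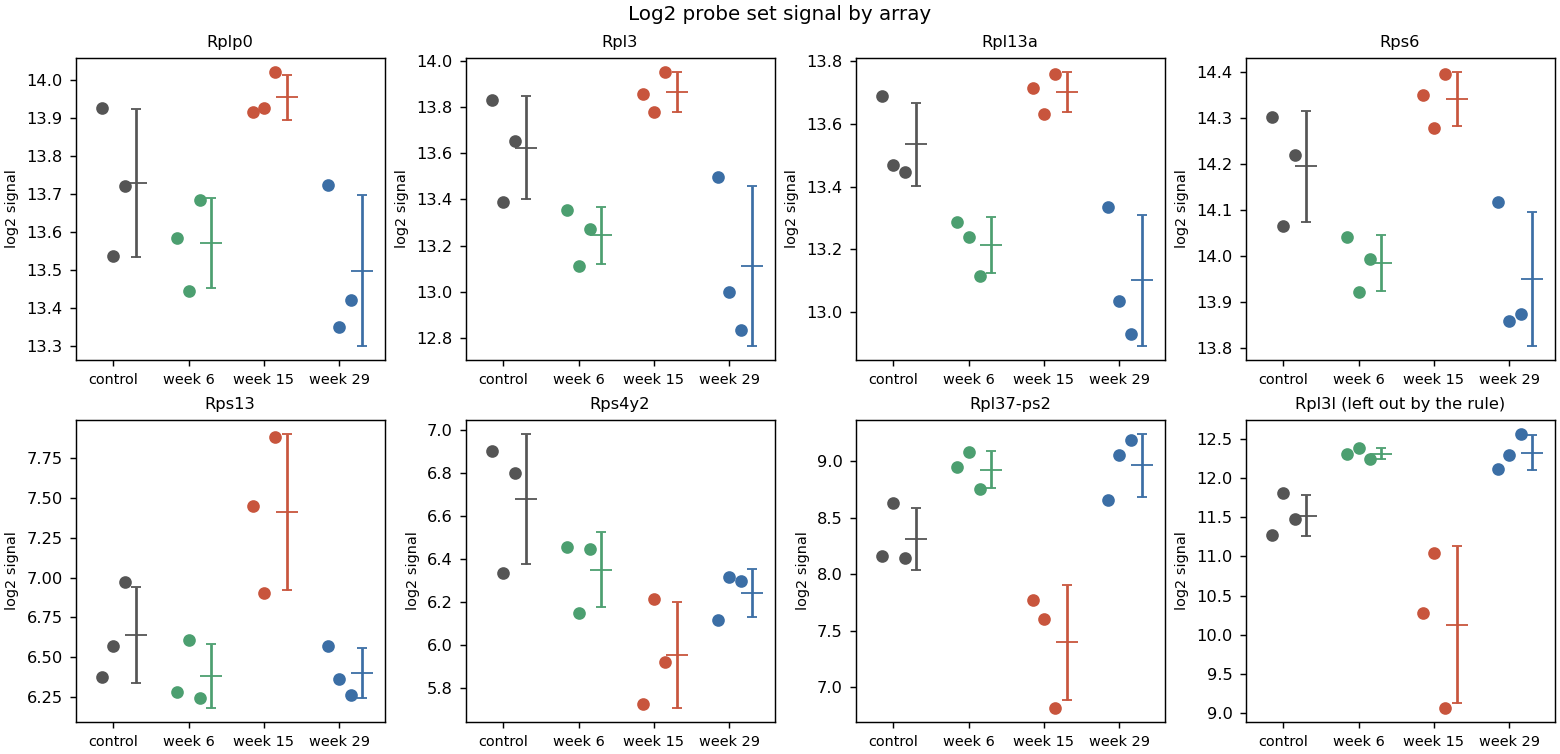
Log2 signal in each of the 12 arrays, with the mean ± SD of each group of 3, for 7 members and for Rpl3l, the muscle paralog of Rpl3 that the rule leaves out. Rplp0, Rpl3, Rpl13a, Rps6 and Rps13 are highest at week 15, while Rps4y2, Rpl37-ps2 and Rpl3l are lowest there.

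From week 15 to week 29 the same measure fell. Since the 2 comparisons share the week 15 samples, they are not independent of each other. The median member fell by 0.41 on the log2 scale, 1.33-fold, where the median of all genes was -0.02. Of 48 members 38 fell and 1 rose in limma, against 22.4% and 21.1% of all genes. In 41 members all week 29 samples lay below all week 15 samples, as in 26.7% of all genes, and in 3 above them, as in 25.4%. Of large-subunit symbols 27 of 33 fell, and of small-subunit symbols 11 of 15. The 38 that fell were all among the 40 that had risen from week 6, and 18.1% of all genes took both calls. Rpl7a (-0.20, limma adjusted p = 0.0909) and Rpl28 (-0.28, limma adjusted p = 0.0815), both large-subunit proteins, had risen and were not called in the second comparison. The Rpl28 value is from its dim probe set. A brighter probe set that lists Rpl28 among several symbols fell by 0.40 (limma adjusted p = 0.00476).

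Rpl13a, a large-subunit protein also known for silencing inflammatory messages in macrophages when released from the ribosome, was 13.71, 13.63 and 13.76 at week 15 and 13.34, 13.04 and 12.93 at week 29. It fell by 0.60 ± 0.11 on the log2 scale (SE; limma adjusted p = 0.00146). Rpl3 fell by 0.75 ± 0.16 (limma adjusted p = 0.00311), a 1.69-fold change and the largest fall among bright members. Rpl14 fell by 0.65 ± 0.15 (limma adjusted p = 0.00597), with week 29 samples between 12.46 and 12.95. Its dim probe set gave -0.25 and was not called (limma adjusted p = 0.257). In all 3 genes, each on its brightest probe set, replicate 1 of week 29 was the highest of its group, and it lay below every week 15 sample. Rplp0 fell by 0.46 ± 0.12 (limma adjusted p = 0.0123), a call lost without replicate 2 or 3 of week 29. Rps6 fell by 0.39 ± 0.10 (limma adjusted p = 0.00787), Rpl5 by 0.41 ± 0.10 (limma adjusted p = 0.00829) and Rpl11 by 0.44 ± 0.10 (limma adjusted p = 0.00386). The Rpsa value was -0.40 ± 0.15 (limma adjusted p = 0.061) on the brightest probe set and -0.59 (limma adjusted p = 0.00492) over its 3 probe sets.

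**Figure D3:**
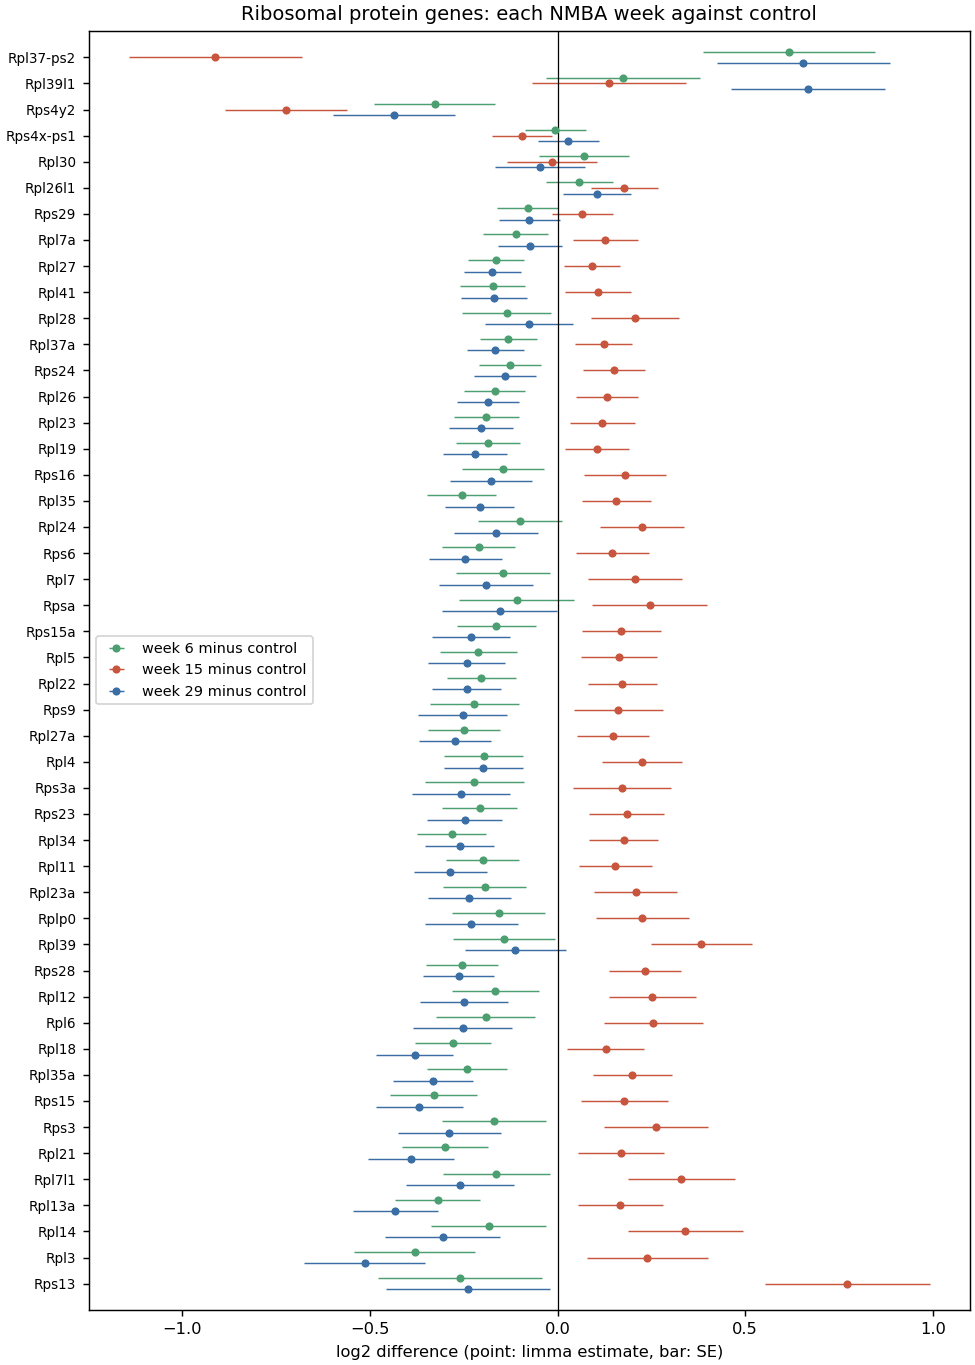
Log2 difference from control at weeks 6, 15 and 29 for all 48 members, as limma estimate ± SE, sorted by the difference between weeks 29 and 15. Most members lie below 0 at weeks 6 and 29 and above 0 at week 15, and Rpl37-ps2 lies on the opposite side; all 3 weeks share the same controls.

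In both comparisons between stages the muscle signal changed in the opposite direction to these genes, and any part of muscle in the differences was not separated. The muscle signal of week 15 did not overlap that of weeks 6 and 29. A fit with it as a covariate therefore cannot separate muscle from stage. Without a covariate, 43.9% and 43.6% of all genes were called. With the muscle score of each array as a covariate, 0 of 48 members were called in either comparison between stages, with 0 at an unadjusted p under 0.05 between weeks 15 and 6 and 1 (higher) between weeks 29 and 15; 0% and 0.584% of all genes were called, and 2817 and 3019 of 14217 had an unadjusted p under 0.05. The medians kept their direction, at 0.14 with 42 of 48 above 0 and at -0.21 with 41 of 48 below 0. With the GAPDH 3′ to 5′ difference as a covariate, 0 members were called higher at week 15 than at week 6 and 1 lower, with 17 higher at an unadjusted p under 0.05 and 20.1% of all genes called. Between weeks 29 and 15, 11 were lower with that covariate, with 35 at an unadjusted p under 0.05 and 29% of all genes called. The medians were then 0.31 with 43 of 48 above 0 and -0.36 with 42 of 48 below 0. Leaving out 1 array gave 22 to 40 rises between weeks 6 and 15, with 22 without replicate 2 of week 6 and 24 without replicate 3 of week 15, and 29 to 39 falls between weeks 15 and 29.

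Against control, few members passed the test. At week 6, 0 of 48 members were called by limma, where 5.07% of all genes were higher and 3.76% lower. At an unadjusted p under 0.05, 13 were lower and 1 higher, where 16.6% of all genes were lower and 14.9% higher. The median was -0.18 on the log2 scale, 44 of 48 estimates were below 0, and in 23 members all week 6 samples lay below all controls, as in 22.3% of all genes, and in 1 above them, as in 20.4%. The lowest p-values belonged to Rpl34 (-0.28 ± 0.09, limma adjusted p = 0.0753), Rps15 (-0.33 ± 0.12, limma adjusted p = 0.0955) and Rpl13a (-0.32 ± 0.11, limma adjusted p = 0.0976). Rpl34 was 13.73, 13.54 and 13.66 in controls and 13.43, 13.27 and 13.39 at week 6, and Rps15 was 13.34, 13.05 and 13.20 against 12.91, 12.80 and 12.89. Neither pair of groups overlapped.

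At week 15, 0 members were called higher than control and 2 lower, where 1.54% of all genes were higher and 8.38% lower. The median was 0.17, 44 of 48 estimates were above 0, and 5 members (10.4%) were higher and 2 lower at an unadjusted p under 0.05, where 10.1% of all genes were higher and 17.5% lower. The 2 lower members were Rps4y2, a copy of the Rps4 gene, and Rpl37-ps2. Most members did not separate from controls: groups were separate and higher in 13 of 48, against 11.4% of all genes, and separate and lower in 2, against 17.4%. Rps13, a small-subunit protein, had the highest estimate, 0.77 ± 0.22 (SE; limma adjusted p = 0.0506), on a dim probe set read at 6.38, 6.57 and 6.97 in controls and 7.45, 6.91 and 7.88 at week 15. A brighter probe set that lists Rps13 among several symbols gave 0.26. On the dim probe set Rps13 rose by 1.03 ± 0.22 from week 6 to week 15 (limma adjusted p = 0.00324). It then fell by 1.01 ± 0.22 to week 29 (limma adjusted p = 0.00339). The brighter probe set gave 0.54 and -0.59 in these comparisons.

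At week 29, 4 members were lower than control and 1 was higher, where 10.8% of all genes were lower and 8.44% higher. The 4 were large-subunit genes: Rpl3 (-0.51 ± 0.16, limma adjusted p = 0.0496), Rpl13a (-0.43 ± 0.11, limma adjusted p = 0.0282), Rpl21 (-0.39 ± 0.11, limma adjusted p = 0.0402) and Rpl18 (-0.38 ± 0.10, limma adjusted p = 0.0296). Rpl18 was 13.73, 13.51 and 13.62 in controls and 13.42, 13.19 and 13.10 at week 29; Rpl21 was 13.01, 12.77 and 12.79 against 12.71, 12.33 and 12.36. Both pairs of groups were separate, while those of Rpl3 overlapped. Another probe set of Rpl3, with a mean of 7.64, gave -0.40 and was not called (limma adjusted p = 0.0863). In all, 12 members had separate groups with week 29 lower, as in 20.9% of all genes, and 2 with week 29 higher, as in 22.6%. At an unadjusted p under 0.05, 22 members were lower and 2 higher, where 20.8% of all genes were lower and 18.5% higher. The median was -0.23 with 44 of 48 estimates below 0. The count of 4 rested on single arrays: it was 18 without replicate 1 of week 29, 7 without control 2, 2 without replicate 1 or 2 of week 6, and 0 without control 1 or 3, without replicate 2 or 3 of week 29, or with the GAPDH or muscle covariate.

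Week 29 and week 6 were close. Of 48 members 0 were called by limma in either direction, as for all genes (0%), with 1 member higher and 0 lower at an unadjusted p under 0.05 and 1166 of all genes. The median was -0.03 on the log2 scale, and in 0 members were the groups separate, against 9.33% of all genes higher and 6.42% lower. Rpl13a differed by -0.11 ± 0.11 (SE; limma adjusted p = 0.786) and Rpl18 by -0.10 ± 0.10 (limma adjusted p = 0.785). The lowest p belonged to Rpl39l1, at 0.49 ± 0.21 (limma adjusted p = 0.473).

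The 5 members with a paralog or pseudogene symbol differed among themselves. Rpl37-ps2 was called in the opposite direction to the subunit genes and Rpl7l1 in the same direction. Rpl26l1, Rpl39l1 and Rps4x-ps1 were not called between stages. Rpl37-ps2, a pseudogene symbol, was 8.16, 8.63 and 8.14 in controls, 8.95, 9.08 and 8.75 at week 6, 7.77, 7.60 and 6.82 at week 15 and 8.65, 9.05 and 9.19 at week 29. It fell by 1.53 ± 0.23 (SE; limma adjusted p = 0.000399) from week 6 to week 15 and rose by 1.57 ± 0.23 (limma adjusted p = 0.000305) to week 29. Against control it fell by 0.91 ± 0.23 at week 15 (limma adjusted p = 0.0329), a call lost without any 1 of the controls, without replicate 1 of week 6 or replicate 3 of week 15, and under quantile normalization. Whether its probe set reads RNA of another gene was not tested.

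Rps4y2 was 6.90, 6.33 and 6.80 in controls, 6.45, 6.15 and 6.45 at week 6, 5.73, 6.21 and 5.92 at week 15 and 6.12, 6.31 and 6.30 at week 29. At week 15 it fell by 0.72 ± 0.16 (SE; limma adjusted p = 0.021), and this call was lost without control 1 or 3 or without replicate 1 or 3 of week 15. Rpl39l1 was 4.49, 4.66 and 4.71 in controls and 5.26, 5.69 and 4.92 at week 29, and rose by 0.67 ± 0.21 (limma adjusted p = 0.0468) at a dim level; the call was lost when any 1 array of the controls or of week 29 was left out, and without replicate 3 of week 6 or replicate 1 or 2 of week 15. Rpl7l1, which takes part in large-subunit assembly, rose by 0.49 ± 0.14 from week 6 to week 15 (limma adjusted p = 0.0173) and fell by 0.59 ± 0.14 to week 29 (limma adjusted p = 0.0066). Another probe set of Rpl7l1, with a mean of 9.41, gave 0.60 and -0.76 (limma adjusted p = 0.00786 and 0.0017). At week 29 against control that probe set was called (-0.53, limma adjusted p = 0.0346). The brightest one was not (-0.26, limma adjusted p = 0.226). Rpl26l1 ran from 6.58 to 6.98 and Rps4x-ps1 from 3.07 to 3.32 over the 12 arrays, and neither was called in any comparison.

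Rpl3l, which replaces Rpl3 in the ribosomes of heart and skeletal muscle, was measured outside the rule. It was 11.28, 11.81 and 11.48 in controls, 12.31, 12.38 and 12.24 at week 6, 10.28, 11.04 and 9.07 at week 15 and 12.11, 12.29 and 12.56 at week 29. From week 6 to week 15 it was lower by 2.18 on the log2 scale while Rpl3 was higher by 0.62, and from week 15 to week 29 it was higher by 2.19 while Rpl3 was lower by 0.75. Rack1, a small-subunit protein without an Rps symbol, was 0.41 higher at week 15 than at week 6 (limma adjusted p = 0.024). It was 0.47 lower at week 29 than at week 15 (limma adjusted p = 0.013). The rise was not called without replicate 2 of week 6, nor the fall without replicate 2 of week 29.

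The spread between arrays of a group was small next to the median changes from week 6 to week 15 (0.38) and from week 15 to week 29 (-0.41). It was nearer in size to the medians against control, which were -0.18 at week 6, 0.17 at week 15 and -0.23 at week 29. The within-group SD had a median of 0.12 over the members, from 0.04 for Rpl27 to 0.33 for Rpl37-ps2, and was 0.22 for Rpl3, the highest of the bright members. Probe sets that list several symbols, at least 1 of them in the family, cannot be assigned to a gene, since the family has many near-identical copies. Of 36 such probe sets, 35 rose from week 6 to week 15 and 36 fell from week 15 to week 29, with medians of 0.38 and -0.43. Of all probe sets, 20.3% rose and 18.3% fell in these comparisons. The same sharing of sequence can affect the named probe sets, and it was not tested.

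Other genes of the pathway were read from lists, whose counts stand against the shares of all genes: from week 6 to week 15, 22.7% rose and 21.2% fell, and from week 15 to week 29, 21.1% rose and 22.4% fell. Mitochondrial ribosomal proteins, which make the ribosomes of the mitochondrion and are encoded by separate genes, ran opposite to the cytosolic ones: 49 of 73 fell and 2 rose from week 6 to week 15, with a median of -0.39, and 47 rose and 2 fell from week 15 to week 29, with a median of 0.32. Their mean signal was 9.44 to 9.56 in controls, 9.72 to 9.74 at week 6, 9.27 to 9.45 at week 15 and 9.62 to 9.75 at week 29. Against control 17 rose (23.3%, where 5.07% of all genes rose) and 0 fell at week 6, among them Mrpl50 (0.53), Mrps5 (0.53) and Mrpl42 (0.50). At week 15, 4 fell (5.48%, where 8.38% of all genes fell), with Mrpl42 (-0.50), Mrps28 (-0.46) and Mrps15 (-0.44) among them, and at week 29, 12 rose (16.4%, where 8.44% of all genes rose), led by Mrpl42 (0.52), Mrpl38 (0.47) and Mrps28 (0.46). These counts against control rested on single arrays. The 17 became 0 without control 1 or 3 or any 1 array of week 6, 7 without control 2 and 6 without replicate 2 of week 29. The 4 became 0 without any 1 control, replicate 2 of week 6, or replicate 1 or 3 of week 15, and 7 without replicate 2 of week 15. The 12 became 0 without control 3 or replicate 2 or 3 of week 29, 1 without control 1, 7 without control 2 and 20 without replicate 1 of week 29.

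Of 69 assembly and nucleolus genes, which build the ribosome, 29 rose, 1 fell and 39 were not called from week 6 to week 15, and 36 fell, 1 rose and 32 were not called from week 15 to week 29. At week 29, 13 fell below control (18.8%, where 10.8% of all genes fell), among them Nop58 (-0.68) and Nop56 (-0.50), core proteins of the box C/D particles that guide methylation of ribosomal RNA, and Ddx21 (-0.54), a nucleolar RNA helicase. That count was 0 without control 1 or replicate 2 or 3 of week 29, and 2 to 8 without control 2 or 3 or any 1 array of week 6. Utp11, a factor for the small subunit, was the 1 that rose at week 6 (0.38), which is 1.45% of the list, where 5.07% of all genes rose. Of 22 genes of RNA polymerase I and of 5S RNA synthesis, 10 rose and 2 fell to week 15, and 1 rose and 11 fell to week 29; the 10 became 6 without replicate 3 of week 15. Against control Taf1d (-0.98), Taf1c (-0.50) and Polr1f (-0.49) were among the 4 (18.2%, where 10.8% of all genes fell) that fell at week 29. Polr3d rose at week 6 (0.46) and at week 29 (0.54). It was the 1 of the list that did (4.55%, where 5.07% and 8.44% of all genes rose).

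Translation factors were mixed. Of 33 initiation factors 7 (21.2%) rose and 5 (15.2%) fell from week 6 to week 15, shares near or below those of all genes. From week 15 to week 29, 4 (12.1%) rose and 10 (30.3%) fell. Below control at week 29 were 2 (6.06%, less than the 10.8% of all genes). They were Eif6 (-0.68), which keeps large subunits apart from small ones, and Eif4a1 (-0.68), the helicase of the cap complex. At week 15 Eif2b3 rose (0.50) and Eif4g3 fell (-0.57) against control. Each was the 1 (3.03%) in its direction, where 1.54% of all genes rose and 8.38% fell. Both counts became 0 without control 2. Of 7 elongation factors and other 5′ TOP genes, 5 rose to week 15 and 4 fell to week 29; the 5 became 3 without replicate 2 or 3 of week 6 and 2 without replicate 3 of week 15. Eef1b2, an exchange factor for eEF1A, changed by 0.56 and -0.61, and Naca, a chaperone of nascent chains, by 0.66 and -0.66.

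**Figure D4:**
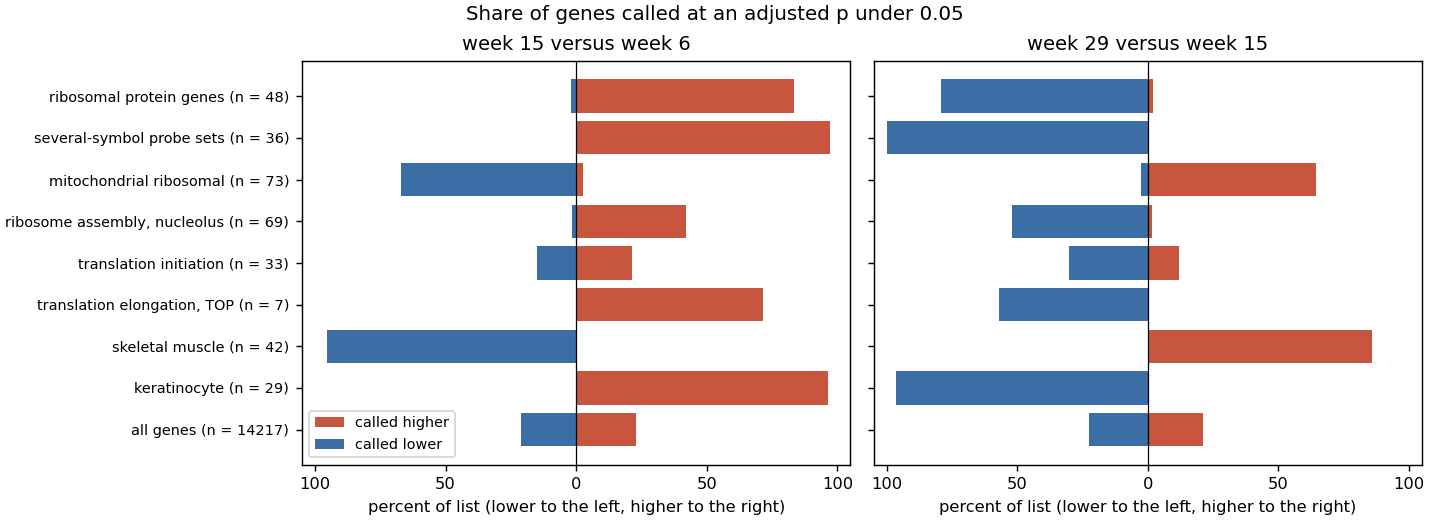
Percentage of genes called higher or lower in limma between weeks 6 and 15 and between weeks 15 and 29. Shown are the ribosomal protein genes, the several-symbol probe sets and all genes. The lists shown are mitochondrial ribosomal proteins, ribosome assembly and nucleolus, translation initiation, translation elongation and 5′ TOP, skeletal muscle and keratinocyte. Ribosomal protein genes and keratinocyte markers are mostly higher at week 15, and mitochondrial ribosomal proteins and muscle markers mostly lower.

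Regulators of ribosomal protein synthesis numbered 25. Of these, 4 (16.0%) rose and 10 (40%) fell from week 6 to week 15, and 10 (40%) rose and 5 (20.0%) fell to week 29. The 4 and the 5 are below the shares of all genes. Myc, the transcription factor that drives ribosome production, rose by 0.68 on the log2 scale (limma adjusted p = 0.009) and then fell by 0.91 (limma adjusted p = 0.002). Maf1, a repressor of RNA polymerase III, was lower by 0.95 at week 15 than at week 6 and higher by 0.95 at week 29 than at week 15. Against control it was 0.42 higher at week 6, 0.54 lower at week 15 and 0.41 higher at week 29. Tsc1, an inhibitor of mTOR, rose against control at weeks 6 (0.38) and 29 (0.33), as did Mxi1, a Myc antagonist, at week 6 (0.43) and Rps6kb1, an S6 kinase, at week 29 (0.36). Gabpb1, a subunit of the ETS factor GABP, fell at week 6 (-0.39) and Rps6ka3 at week 15 (-0.51). Cdkn2a, which encodes a cell cycle inhibitor and a regulator of Mdm2, was below control at all 3 weeks, by 0.89, 0.81 and 1.08. In comparisons with control, the polymerase, initiation factor and regulator counts at weeks 6 and 29 fell to 0 without control 1 or 3, except the 1 regulator (Cdkn2a) lower at week 29 and the 1 polymerase gene (Polr3d) higher then.

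Marker lists were measured beside these genes. Of 42 muscle markers 40 fell from week 6 to week 15 and 36 rose to week 29. Of 29 keratinocyte markers 28 rose and then 28 fell. Of 28 fibroblast and matrix genes 17 fell and 2 rose to week 15, and 16 rose and 1 fell to week 29. Of 21 lymphocyte genes 5 (23.8%, near the 22.7% of all genes) rose and 1 fell, and then 1 rose and 3 fell. Leaving out 1 array gave 2 (without replicate 2 of week 6) to 9 (without replicate 2 of week 29) in place of the 5, and 0 (without replicate 3 of week 29) to 7 (without replicate 2 of week 29) in place of the 3. The part of each cell type in the ribosomal protein values was not tested.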

How the data were processed

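The deposited values are log2 signals of probe sets on each array. Per the submitters' processing notes, the authors used Affymetrix Expression Console. How it summarized probes, its version, any filter and the genome build are not given in the sources used, and the log2 scale was read from the values. All 12 sample columns were used as deposited, and 0 were left out. The table has 31099 probe sets; without 57 array controls, 31042 remained for testing; 20826 had 1 gene symbol, 436 several and 9780 none in the platform annotation. The probe set with the highest mean stood for each of 14217 genes, with no filter on dim signal. Array pairs shared 7 to 47 equal values, so no arrays were merged. The number of arrays limits the precision.

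Tests, all two-sided, came from limma 3.58.1 (lmFit, then eBayes; R 4.3.3), with the 4 groups in 1 fit with 8 residual degrees of freedom. P-values were adjusted by Benjamini-Hochberg over 31042 probe sets, and a gene was called at an adjusted p under 0.05. In all, 6 comparisons were made. The script was tested on simulated data. Named genes were Rplp0, Rpsa, Rpl3, Rpl5, Rpl11, Rpl13a and Rps6, and the largest called changes with groups that do not overlap in each comparison. Where few passed, the members with the lowest p-values were given as values. Members with a paralog or pseudogene symbol and up to 3 called genes of each list in each direction were also named. Rpl28, Rpl30, Rps29, Rps28 and Rpl7a, Rack1 and Rpl3l, and Myc, Eef1b2 and Naca were chosen after their values were seen. The members and lists were chosen with earlier results of these data known. Alternatives tried were median and quantile scaling, the mean of a gene's probe sets, probe sets without the x or s suffix, a dim-signal filter, the groups of a comparison alone, a replicate block, muscle and GAPDH covariates, only subunit genes, only bright members, probe sets with several symbols, and leaving out arrays.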

Additional observations from a re-analysis of the deposited data

Results flagged for a closer look

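The differences of weeks 6 and 15 from control were themselves different in 40 members, which were higher at week 15 than at week 6 in limma, where 22.7% of all genes were. The differences of weeks 15 and 29 from control were different in 38 members, which were lower at week 29 than at week 15, where 22.4% of all genes were. Both comparisons use the same week 15 samples, and the muscle and GAPDH values of the arrays changed between the same groups. With the muscle score as a covariate 0 members were called in either, where 0% and 0.584% of all genes were. Muscle scores of week 15 did not overlap those of weeks 6 and 29, so that fit cannot separate muscle from stage.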

How the results depend on the processing

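The medians of the members kept their direction under every alternative in all comparisons but week 29 with week 6, where they ran from -0.12 to 0.01. The counts of members called are given below as higher and lower than the group named second.

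Between weeks 15 and 6 the 40 higher became 0 with the muscle or the GAPDH covariate and 75 with probe sets of several symbols counted; the 1 lower became 0 with the muscle covariate, with only subunit genes and with only bright members. Between weeks 29 and 15 the 38 lower became 0 with the muscle covariate, 11 with the GAPDH covariate and 74 with several-symbol probe sets; the 1 higher became 2 after median scaling and 0 with the muscle covariate, only subunit genes or only bright members. For week 29 against control the 4 lower became 2 after median scaling, 9 with the mean of a gene's probe sets, 7 with the dim filter, 6 with quantile normalization or the replicate block, and 0 in the fit of those groups alone or with either covariate; the 1 higher became 2 in the fit of those groups alone and 0 with the dim filter, the block, either covariate, quantile normalization, only subunit genes or only bright members. For week 15 against control the 0 higher became 1 after median scaling, with the mean of a gene's probe sets, the dim filter and quantile normalization; the 2 lower became 1 with only subunit genes or quantile normalization and 0 in the fit of those groups alone, with the muscle covariate or only bright members. For week 6 against control the 0 higher became 1 in the fit of those groups alone and without the week 15 arrays. The fits with quantile normalization, bright members, several-symbol probe sets or no week 15 arrays were chosen after seeing the data. The cause of these changes was not tested.

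Leaving out 1 array gave 0 to 1 higher and 0 to 1 lower at week 6 against control, 0 to 3 and 0 to 2 at week 15, 0 to 2 and 0 to 18 at week 29, 22 to 40 and 1 to 2 between weeks 15 and 6, 1 to 2 and 29 to 39 between weeks 29 and 15, and 0 and 0 between weeks 29 and 6. The value of Rpsa at week 6 against control, -0.11, was 0.034 without control replicate 1, the highest when 1 array was left out, -0.27 without control replicate 2, the lowest, and 0.019 with the GAPDH covariate. Of 1133 values of named genes under alternatives, 111 lost a call, 21 gained one, 2 (Rpsa, above) changed sign and 999 kept their direction and their side of the threshold.

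Same-numbered arrays correlated at -0.41 to 0.29 (8 of 18 pairs over 0.1), other pairs at -0.34 to 0.52, so the numbers were not taken as a pairing. With the replicate block, 38 members were higher at week 15 than week 6 and 39 lower at week 29 than week 15. Signal over background could not be assessed without detection calls, and the 3 arrays of a group limit the precision.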

Other observations

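An array control probe set for rat 5S ribosomal RNA, which joins Rpl5 and Rpl11 in the large subunit, read 6.83, 7.26 and 6.85 on the log2 scale in controls and 6.88, 6.73 and 6.46 at week 6. It read 7.97, 7.26 and 6.95 at week 15 and 6.65, 6.82 and 6.92 at week 29. The probe set was left out of the tests as an array control, and its groups overlapped except that all week 15 samples lay above all samples of weeks 6 and 29.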
